A study of Saccharomyces cerevisiae with 5 samples.

Results

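The 33 genes described here are the 32 subunit genes of the yeast 26S proteasome named PRE, PUP, SCL1, RPT and RPN, and *RPN4*, the gene of their transcriptional activator. They were chosen by systematic name, by a rule that uses no measured value, and make up 33 of the 6697 annotated coding sequences (CDS) in the deposited table. Of the subunits, 14 form the 20S core and 18 the 19S regulatory particle. Both RNA samples came from the haploid MATa strain BY4741, which carries the *his3*Δ1 allele and lacks *LEU2*, *MET15* and *URA3* (*leu2*Δ0, *met15*Δ0 and *ura3*Δ0), grown in rich medium (YPD) to mid-log phase, either without added copper or with 1 mM CuSO4 for 4 hours. Poly(A)+ RNA of each culture was sequenced as 1 library. A map of γH2A, the phosphorylated form of histone H2A found at stalled replication forks, was made by ChIPseq in wild-type cells grown in YPD. There is 1 library per condition, so no value has a replicate error and no test between conditions was possible. The question put to the RNA data was how far exposure to copper changed the mRNA of each of these genes.

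The proteasome degrades proteins that carry ubiquitin chains. Its 20S core is a barrel of stacked alpha and beta rings with the proteolytic sites inside. The 19S particle caps the barrel: its base holds a ring of ATPases that unfold the substrate, and its lid holds the enzyme that removes ubiquitin. In yeast the subunit genes share an upstream element, the proteasome-associated control element (PACE), which is bound by Rpn4. Rpn4 is itself a short-lived substrate of the proteasome, so that its protein accumulates when proteasome activity is low, and *RPN4* is in turn a target of Yap1, Pdr1, Pdr3 and Hsf1.

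The PACE letters GGTGGCAAA were searched on both strands from 250 bases before to 50 bases after the first base of each CDS, in the R64 genome of RefSeq. An exact match lay in this window for 27 of the 33 genes and, counting these, for 72 of 6020 promoters (1.20%). PACE is the element that these genes are known to share, so their high share of matches is not a finding of these data. The matches before the gene with the highest level (*PRE2*) and before the 4 genes whose change had a counting interval off 0 are shown with 10 bases on each side, 5′ to 3′ along the strand that carries the element, which is in capitals.
PRE2, chrXVI:732184-732212, + strand: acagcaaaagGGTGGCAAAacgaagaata
PRE6, chrXV:255218-255246, - strand: tttcccttccGGTGGCAAAagaatcttcg
PRE8, chrXIII:86841-86869, - strand: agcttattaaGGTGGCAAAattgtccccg
RPT2, chrIV:437906-437934, + strand: gtttttctccGGTGGCAAAtgtctctttt
RPN1, chrVIII:164838-164866, - strand: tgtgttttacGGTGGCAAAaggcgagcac
Each of the 27 genes had 1 match, and none of the matches lay inside an annotated CDS. The element ran in the direction of the gene in 19 cases, as before *PRE2*, and against it in 8, as before *PRE6*. Its outermost base was between 84 and 183 bases before the start codon, with a median of 120. The base that followed the element was A in 18 of the 27 matches and T in 8.

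By role, all 6 ATPases of the base (*RPT1* to *RPT6*) had an exact match, as did 12 of the 14 core subunits and 15 of the 18 subunits of the 19S particle. The subunits without one were *PRE5*, *PUP1*, *RPN8*, *RPN10* and *RPN13*. Each of these 5 had 1 site that differed from the element at a single base. In the sequences shown the capitals mark that site, and the substitution gives the base of the element, its position counted from 1 at the 5′ end of the element, and the base found.
PRE5, G1A, chrXIII:901552-901580, + strand: cctattatagAGTGGCAAAattaaaaatt
PUP1, G1A, chrXV:631891-631919, - strand: aacccggccgAGTGGCAAAataccaaaaa
RPN8, G1A, chrXV:817085-817113, - strand: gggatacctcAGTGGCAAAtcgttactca
RPN10, A7G, chrVIII:498968-498996, - strand: tgtaaattccGGTGGCGAAaacccgcctg
RPN13, A7G, chrXII:965656-965684, - strand: ttattcgcgaGGTGGCGAAagctttgcta
The same substitution thus occurred before *PRE5*, *PUP1* and *RPN8*, and another before *RPN10* and *RPN13*. These sites lay from 101 to 172 bases before the start, within the range of the exact matches. With 1 mismatch allowed, 32 of the 33 genes had a match, against 7.54% of all promoters, and *RPN4* was the one without. A match is a description of the letters and not evidence of binding.

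**Figure D1:**
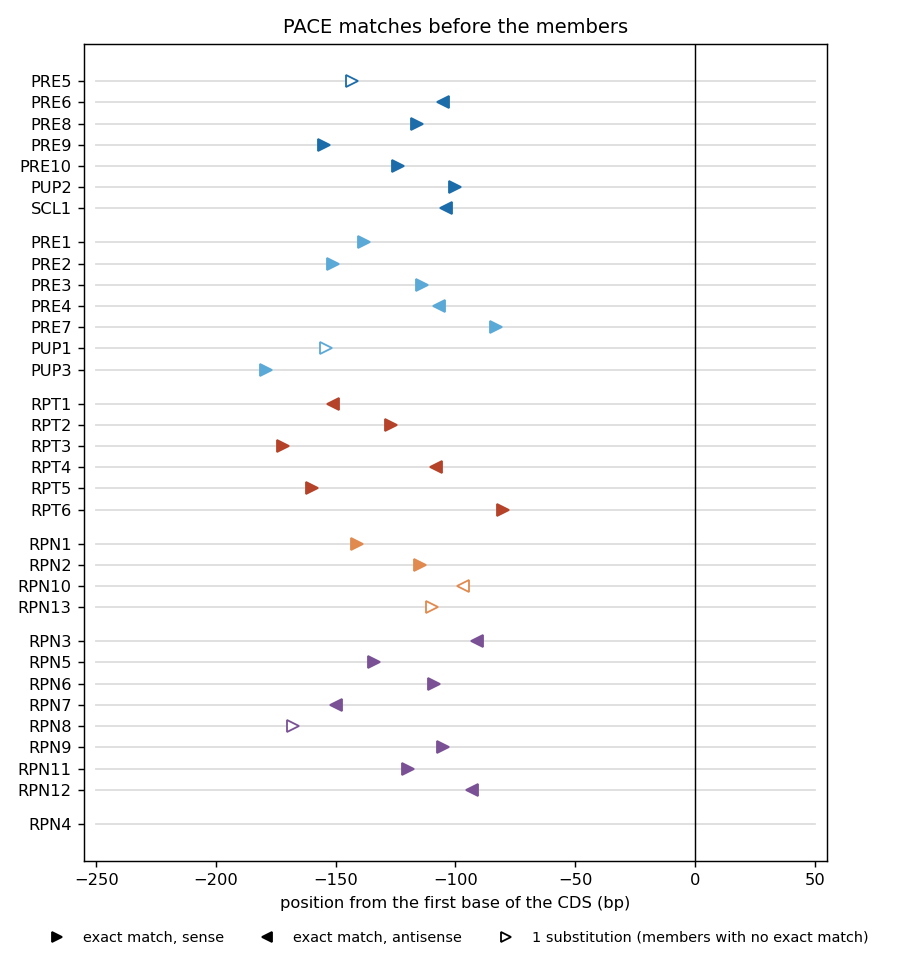
Position of PACE matches (horizontal axis, bp from the first base of the CDS) for each of the 33 genes, grouped and coloured by role; arrowheads give the direction of the element, and open arrowheads are the sites with 1 substitution in the subunits without an exact match. The outermost bases of all matches lie between 84 and 183 bases before the start, and the row of *RPN4* is empty.

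*RPN4* (YDL020C, chrIV:415113-416708, - strand) held other elements in the 500 bases before its start, a stretch that lies within the 954 bp between it and the next CDS, *OSH2*. The letters of the Yap1 element (TTACTAA) occurred in the 500 bases before *RPN4* and before 11.8% of all CDS, those of the Pdr1/Pdr3 element (TCCGNGGA) before *RPN4* and 2.91%, and a head-to-head pair of the heat shock factor unit (GAANNTTC) before *RPN4* and 19.2%. All were searched on both strands, and the sites before *RPN4* do not overlap each other. The sites before *RPN4* are shown because they carry the letters associated with its known activators.
RPN4 Pdr1/Pdr3 site 442 bases before the start, chrIV:417133-417160, - strand: aataacaagtTCCGTGGAactcaaagaa
RPN4 Pdr1/Pdr3 site 399 bases before the start, chrIV:417090-417117, + strand: cacgtgattaTCCGTGGAaaggttcgta
RPN4 Yap1 site 374 bases before the start, chrIV:417066-417092, - strand: gtgatcgctaTTACTAAtagccgttta
RPN4 heat shock factor site 343 bases before the start, chrIV:417034-417061, - strand: gatggttctaGAAAGTTCcgtttcggcg
A further GAANNTTC pair began 16 bases before the start of *RPN4*. The Pdr1/Pdr3 letters were in the 500 bases before none of the 32 subunits, the Yap1 letters before 5 and the GAANNTTC pair before 3. These counts are too small to be set apart from the shares of all CDS. In the shorter window used for PACE, *RPN4* had neither the Yap1 nor the Pdr1/Pdr3 letters. *RPN11* had the Pdr1/Pdr3 letters there, but after its start, inside the CDS.

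The depth behind the RNA values was 5572698 reads on CDS in YPD and 5749810 with CuSO4, with a median of 276 and 290 reads per CDS. The treatment label was checked on genes known to respond to copper. *CUP1-1*, a copper metallothionein gene, had 496 reads in YPD and 4042 with CuSO4, and *CTR1*, the gene of the high-affinity copper transporter, had 1554 and 173. Of the genes that BY4741 lacks, *LEU2*, *MET15* and *URA3* had 0 reads in both libraries, while *HIS3*, of which *his3*Δ1 removes only a part, had 291 and 309. A count of 0 allows up to 3 reads.

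With copper, none of the 33 mRNAs was 25% higher or 20% lower, which are the same distance from 0 on the log2 scale (0.32). Together the 33 CDS took 43473 reads in YPD and 44930 with CuSO4, or 0.780% and 0.781% of all reads on CDS. The log2 change, CuSO4 minus YPD with both libraries scaled to the larger, ran from -0.14 for *PRE8* to 0.13 for *PRE6*, with a median of 0.00029. The median was 0.01 over the 6363 CDS to which the libraries together gave 10 or more reads. The change was above 0 for 17 of the 33 genes and below 0 for 16. This split depends on how the libraries are scaled: it is 13 to 20 when each library is centred on its median CDS, and 20 to 13 when the library totals leave out cytosolic ribosomal proteins.

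The smallness of these changes was set against the rest of the transcriptome. Over the 6078 CDS with at least 20 reads in the library with more, 7.80% were at least 25% higher and 4.43% at least 20% lower with copper, against 0 of the 33 genes. A 2-fold difference was passed upwards by 0.526% and downwards by 0.658%, again against 0 of the 33. These shares differ with the number of reads. Among the 1681 CDS whose reads in both libraries together fell in the range of the 33 genes (1042 to 5883 reads), 2.14% were at least 25% higher and 1.61% at least 20% lower. That range was chosen after the data were seen. At such shares fewer than 1 of 33 genes would pass in each direction, so the count of 0 is near the background. The median size of the log2 change was 0.061 for the 33 genes and 0.087 for the 1648 other CDS in that range, of which 28.3% changed by more than the largest change of any of the 33. The SD of the 33 changes was 0.068 on the log2 scale, where the read counts alone would give 0.060, and that of the 1648 CDS was 0.257, where the counts would give 0.069. Counting noise was thus also somewhat lower for the 33 genes. The SD of the 1648 CDS includes extreme changes, the largest 3.29 in size. The quartiles differed less: -0.06 and 0.06 for the 33 genes, and -0.10 and 0.07 for the 1648 CDS.

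**Figure D2:**
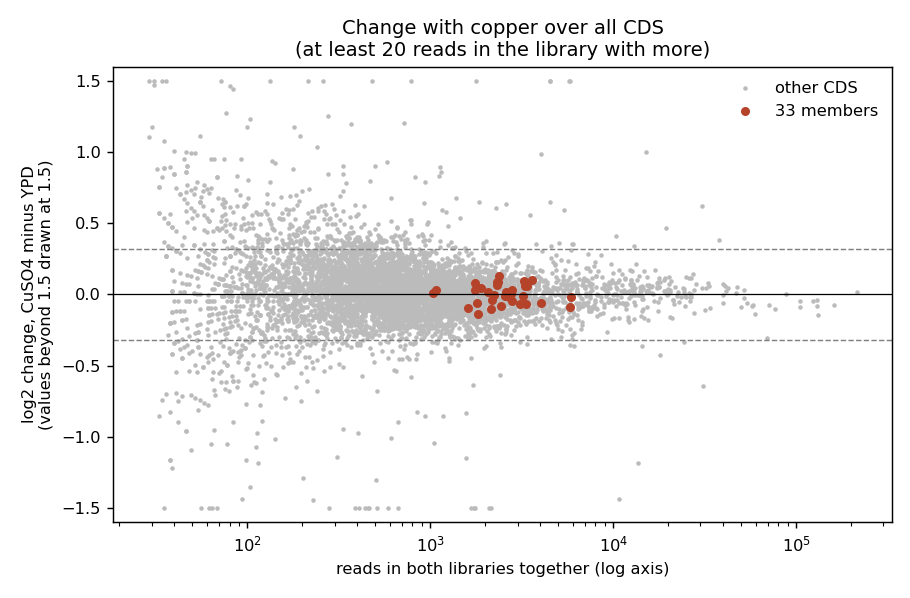
Log2 change with copper (vertical axis, CuSO4 minus YPD) against reads in both libraries together (horizontal log axis) for CDS with at least 20 reads in the library with more; red points are the 33 genes, grey points the other CDS, and dashed lines mark 25% higher and 20% lower. The red points lie between -0.14 and 0.13, inside the dashed lines.

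For each gene an exact 95% interval on the change was computed from how its reads divided between the libraries (Clopper-Pearson). Such intervals cover counting error only: reads made by PCR are not independent molecules, and differences between cultures are not included. All 33 intervals lay inside these limits of 25% higher and 20% lower, the outermost bounds being -0.27 for *PRE8* and 0.24 for *PRE6*. The interval lay above 0 for 2 genes, *PRE6* and *RPT2*, and below 0 for another 2, *PRE8* and *RPN1*. Over all 6078 CDS the corresponding shares were 11.6% above and 10.1% below, and among the 1681 CDS with as many reads they were 12.4% and 18.4%. The counts of 2 and 2 among 33 are thus no higher than the background. None of the 4 was past 0 at a 99% interval.

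*RPN4* had 510 reads in YPD and 532 with CuSO4. Its level was 8.37 and 8.38 (log2 reads per kb of CDS), a change of 0.01 (95% counting interval -0.17 to 0.19). The 2 libraries thus gave the same level for the activator within counting error. It stood at percentile 63.1 of all CDS by level in YPD, well below the subunits it activates: *RPN9* (YDR427W), the lowest of the 32, was 2.69-fold above it in YPD and 2.70-fold with CuSO4.

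The 32 subunits had levels close to each other. In YPD they ran from 9.80 (*RPN9*) to 10.90 (*PRE2*), a span of 2.14-fold, at percentiles 85.1 to 92.9 of all CDS, with a median of 10.31. With CuSO4 the span was 2.21-fold and the median 10.25. Ordered by level in YPD, all 31 pairs of neighbours had Poisson intervals that overlapped. Overlap of separate intervals does not by itself show that the order of a pair is unsettled, and the differences between neighbours were not tested. The same 10 genes were the highest 10 in both libraries, and no gene moved by more than 5 places.

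**Figure D3:**
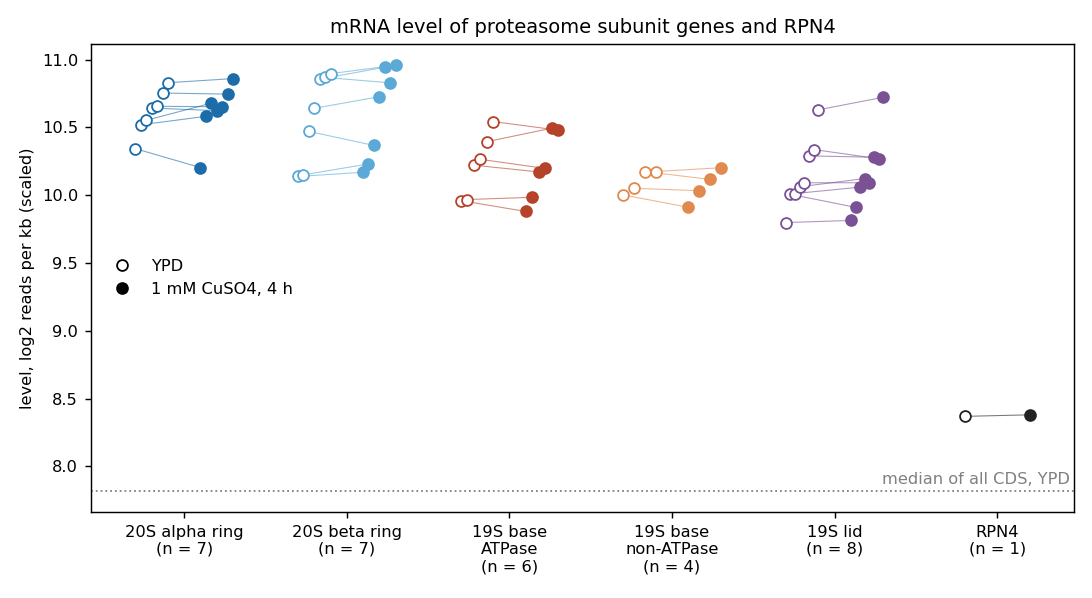
mRNA level (vertical axis, log2 reads per kb of CDS with both libraries scaled to the larger) of the 33 genes by role, with open circles for YPD and filled circles for 1 mM CuSO4, a line joining each gene's values, and a dotted line at the median of all CDS in YPD (7.82). The subunits lie between 9.80 and 10.96 and *RPN4* at 8.37 and 8.38.

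The clearest difference among the subunits was between the core and the regulatory particle. The median level of the 14 core subunits was 10.64 in YPD and 10.67 with CuSO4, and that of the 18 subunits of the 19S particle was 10.13 and 10.12, so that the core was 1.42-fold higher in YPD and 1.46-fold higher with CuSO4. Among these 14 and 18 genes, no 19S subunit was above the median core subunit in YPD and 1 was with CuSO4 (*RPN8*). No core subunit was below the median 19S subunit in either library. *SEM1*, a small lid component that the naming rule leaves out, was above the core median in both, at 10.86 in YPD and 10.97 with CuSO4. CDS length moves along with this difference: core CDS are 597 to 867 bp long and those of the 19S particle 471 to 2982 bp, and among other CDS in these length ranges the median level in YPD was 8.42 (n = 828) and 7.97 (n = 4693). The part of length in the difference was not tested. Among the 18, the 19S subunits with CDS as short as those of the core were *RPN10*, *RPN12* and *RPN13*. Their levels were 10.01 to 10.17, and 12 of the 14 core subunits were above the highest of them. *SEM1*, with a CDS of 270 bp, shorter than any of the core, went the other way, so these few genes do not settle the part of length. Levels are compared per kb of the whole CDS; with 100 bp added to each length the gap between the medians falls from 0.51 to 0.47 on the log2 scale.

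The alpha ring, which forms the gate of the core, had 7 genes with levels from 10.34 to 10.83 in YPD. *PRE9* (YGR135W), the highest, had 1366 reads in YPD and 1444 with CuSO4. *PRE8* (YML092C), the lowest, had 945 and 888 reads, and its level went from 10.34 to 10.20. Its change of -0.14 (-0.27 to -0.0058), 1.10-fold lower, was the lowest of the 33. *PRE6* (YOL038W) had 1110 and 1254 reads, and its change of 0.13 (0.0085 to 0.24), 1.09-fold higher, was the highest. The genes at both ends of the range of changes thus belong to the same ring. The other 4 alpha genes (*PRE5*, *PRE10*, *PUP2* and *SCL1*) had from 1099 to 1339 reads in YPD, and their changes ran from -0.02 to 0.06.

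The beta ring holds the proteolytic sites, in *PRE3* (caspase-like), *PUP1* (trypsin-like) and *PRE2* (chymotrypsin-like). *PRE2* (YPR103W), with 1591 reads in YPD and 1719 with CuSO4, was the highest of all 33 genes (level 10.90 and 10.96). *PRE3* (YJL001W) had 839 and 918 reads and a level of 10.15 and 10.23. *PUP1* (YOR157C) had 856 and 905 reads and a level of 10.14 and 10.17. By the deposited lengths *PRE2* was thus the highest of the core in YPD and *PRE3* and *PUP1* the lowest. The CDS of *PRE3* contains an intron, which that length includes. Per kb of coding sequence its YPD level is 10.39, which moves it above *PRE8* (10.34). Of the core genes only *PUP1* and *PRE8* are then lower, so *PRE3* stays near the bottom. Changes of the catalytic genes were 0.06, 0.08 and 0.03, and each interval included 0.

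Of the beta subunits without a proteolytic site, *PUP3* (YER094C) had 1107 reads in YPD and 1217 with CuSO4, a change of 0.09 (-0.03 to 0.21). *PRE7* (YBL041W) had 1120 and 1230 reads, likewise a change of 0.09 (-0.03 to 0.20). *PRE4* (YFR050C) moved the other way, from 1098 to 1058 reads, a change of -0.10 (-0.23 to 0.02). *PRE1*, with 1078 and 1086 reads, had a change of -0.04. All these intervals included 0. Summed over the 14 core genes the reads were 15924 and 16724, a change of 0.02 (-0.01 to 0.05).

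The ATPases of the base had levels from 9.96 to 10.54 in YPD. *RPT1* (YKL145W) was the highest, with 2024 reads in YPD and 2005 with CuSO4, but it overlaps a short CDS on the same strand, YKL145W-A, with 228 and 224 reads, and reads in the shared stretch cannot be told apart. *RPT3* (YDR394W), the lowest, had 1239 and 1213 reads, a change of -0.08 (-0.20 to 0.04). *RPT2* (YDL007W) had 1709 and 1895 reads, and its change of 0.10 (0.0042 to 0.19) was the only one in the base with an interval above 0. The remaining 3 (*RPT4*, *RPT5* and *RPT6*) had changes from -0.07 to 0.02.

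*RPN1* (YHR027C) and *RPN2*, the large scaffold subunits of the base, had the most reads of all 33 genes and the longest CDS. *RPN1* had 2954 reads in YPD and 2872 with CuSO4, a change of -0.09 (-0.16 to -0.02), and *RPN2* had 2909 and 2974, a change of -0.02. Among the ubiquitin receptors, *RPN13* (YLR421C) had 526 and 555 reads, a change of 0.03 (-0.15 to 0.20), and *RPN10* had 901 and 896, a change of -0.06. Of the 10 base genes 7 were lower with copper, and their summed reads, 16492 and 16680, gave a change of -0.03 (-0.06 to -0.0023). The side of 0 of that upper bound depends on the scaling: it was 0.01 with the 138 cytosolic ribosomal protein CDS left out of the library totals, and -0.03 with each library centred on its median CDS.

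In the lid, *RPN8* (YOR261C), the partner of the deubiquitinase, was the highest, with 1557 reads in YPD and 1718 with CuSO4 and a change of 0.09 (-0.0076 to 0.19). *RPN9* (YDR427W) was the lowest, with 1017 and 1064 reads and a change of 0.02 (-0.11 to 0.14). *RPN12* (YFR052W) had 820 and 794 reads, a change of -0.10 (-0.24 to 0.05). *RPN11*, the deubiquitinase itself, had 919 and 983 reads, a change of 0.05 (-0.08 to 0.18). The other lid genes (*RPN3*, *RPN5*, *RPN6* and *RPN7*) had 1360 to 1672 reads in YPD and changes from -0.07 to 0.06. Over the 18 genes of the 19S particle the summed reads were 27039 and 27674, a change of -0.02 (-0.04 to 0.01). The change of the core less that of the 19S particle was 0.04 (-0.0023 to 0.08), an interval that includes 0 and does not depend on how the libraries are scaled.

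**Figure D4:**
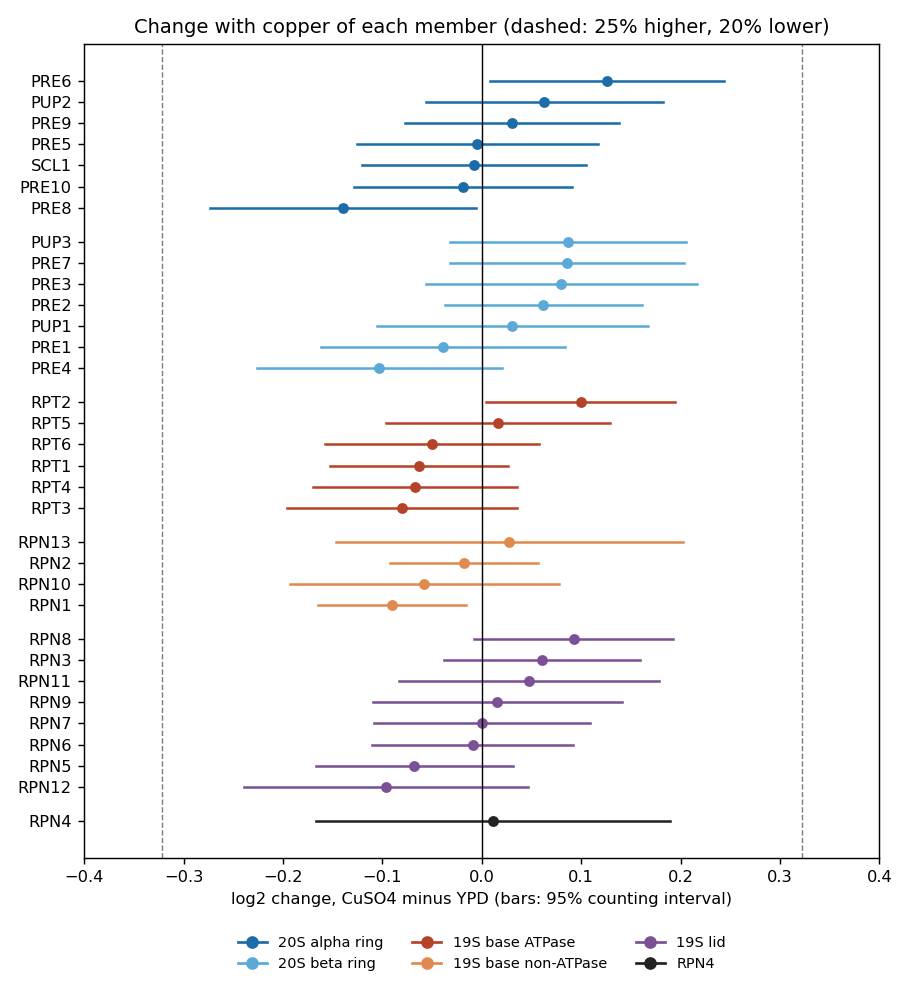
Log2 change with copper (horizontal axis, CuSO4 minus YPD) of each of the 33 genes, grouped and coloured by role, with the exact 95% counting interval as a bar and dashed lines at 25% higher and 20% lower. Points run from -0.14 (*PRE8*) to 0.13 (*PRE6*), and no bar reaches a dashed line.

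Levels and changes were also set beside the PACE matches. The 27 subunits with an exact match had a median YPD level of 10.34 (9.80 to 10.90) and a median change of -0.01, and the 5 without had 10.17 (10.14 to 10.66) and 0.03. The ranges overlap for both quantities. Of the other 45 CDS with an exact match, 44 are in the RNA table under the same name, with a median YPD level of 8.46. Their median change was -0.0013, over those with at least 10 reads in the libraries together. Of the 43 with at least 20 reads in one library, 2 were at least 25% higher and 1 at least 20% lower, which is no more than the 7.80% and 4.43% of all CDS.

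Genes that act on Rpn4 or beside the proteasome were taken from lists made by function. Of the known activators of *RPN4* (*YAP1*, *PDR1*, *PDR3* and *HSF1*), 0 of 4 were 25% higher or 20% lower, with a median change of -0.07. Of the genes of the ubiquitin ligase that turns Rpn4 over (*UBR2*, *MUB1* and *RAD6*), 0 of 3 were, with a median of -0.05. These can be read against the background shares of 7.80% and 4.43% given for all CDS.

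Of 18 assembly chaperones and associated factors, 0 passed either limit, and their median change was 0.09. *BLM10*, an alternative cap of the core, had 1096 reads in YPD and 949 with CuSO4, a change of -0.26, and was the one gene of the 18 whose interval did not include 0. *SEM1*, a small component of the lid that is not among the 33 by the naming rule, had 484 and 541 reads, a change of 0.11. Of 19 genes of the ubiquitin and Cdc48 pathway, 0 passed either limit and the median was 0.0063. Of all CDS 7.80% passed the upper limit and 4.43% the lower, so counts of 0 in lists this small are near the background. The interval lay above 0 for the polyubiquitin gene *UBI4* (1263 and 1425 reads, a change of 0.12) and below 0 for the ubiquitin-activating enzyme *UBA1* (3255 and 3182 reads, a change of -0.08). In both lists these counts are no higher than the shares of all CDS, 11.6% above and 10.1% below 0.

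In cells grown in YPD, 1 of the 33 genes had a γH2A peak within the 1000 bp upstream of its start, against 6.64% of all 6697 CDS. The count is too small to be set apart from that background. The gene was *RPT2* (chrIV:438047-439360, + strand). The peak spanned chrIV:434379-437740 (3362 bp), its nearest edge 307 bp and its summit, at 436583, 1464 bp from the start of the CDS. Its enrichment was 2.59-fold over the control level, the pileup at the summit was 225 and the -log10 p-value 35.0, and it ranked 136 from the lowest of the 240 peaks by enrichment. The summit lies over YDL007C-A, which had 0 reads in both RNA libraries. No peak lay inside any of the 33 CDS, and the median distance from a CDS to the nearest peak was 27231 bp. *RPN12* also had a peak close by, 354 bp downstream of its CDS (2.13-fold). The depth of the ChIP library is not known, and whether the peak upstream of *RPT2* bears on the reads of that gene was not tested.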

How the data were processed

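The RNA table and the peak list are the authors' files. They mapped RNA reads to R64-2-1 with HISAT2 2.0.5, summed them over each CDS in SeqMonk, corrected for library size (to that of the larger library) and for length in kb, and deposited log2 values, in which a CDS without reads stands at 0.9 reads. The step to a common median named in the methods is not in these values (medians 7.82 and 7.84). Undoing length and scale (1.04 for YPD, 1 for CuSO4) gave whole numbers of reads, within 0.05, for 99.9% and 100.0% of the values above that floor. Whether strand was used in counting is not given in the sources used here.

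ChIP reads were mapped with Bowtie2 2.2.5 and peaks called with MACS2; artifactual peaks were removed by hand and those of at least 2-fold enrichment kept. The deposited peak values are the pileup (a signal), the −log10 p-value and the fold enrichment, a ratio to a control level; the q-value was not used. The list is labelled for 3 samples (YPD ChIP, CuSO4 ChIP and input) and was read as describing YPD cells, from the legend of the peak table. Values of the CuSO4 ChIP were not analysed here.

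With 1 library per condition no test was run. Changes are differences of the log2 values with exact 95% Clopper-Pearson intervals. The code was checked on generated counts with known answers. Start, end and symbol of all 33 genes are the same in RefSeq, as are start and end for 99.9% of the 6008 nuclear CDS with an entry. Values in both libraries are given for *RPN4*, the catalytic subunits, the highest and lowest gene of each role, the 5 highest and 5 lowest changes, and any gene 25% higher or 20% lower, with an upstream peak or overlapping another CDS; genes named beside them were chosen after their values were seen. The rule for the 33 genes uses names alone, but it and the lists were chosen with earlier results of these data known. Alternatives were other scalings, fold thresholds, intervals, lengths, windows and motif letters. Python 3.11.15, numpy 2.4.6, pandas 2.3.3, scipy 1.17.1 and matplotlib 3.10.9 were used.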

Additional observations from a re-analysis of the deposited data

How the results depend on the processing

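Of 41 alternatives to the 9 main results, 35 left the value within its tolerance and 6 moved it. The tolerance was 0.019 on the log2 scale for the median change of the 33 genes, the counting interval for a level and for *RPN4*, and a ratio of 1.5 for counts. The signs of the median change and of the change of *RPN4* are not settled: the first was -0.0021 without *RPN4* and -0.0022 from summed reads, and both were below 0 when centred. The count of genes at least 25% higher or 20% lower stayed at 0 in each direction under every scaling, under 5 added reads and without *RPN4* or *RPT1*, and the change of *RPN4* ran from -0.01 to 0.02. Centred on each library's median CDS, the median change of the 33 genes was -0.023 in place of 0.00029. Genes with an interval above 0 went from 2 to 0 under that centring, and from 2 to 0 with a 99% interval. Genes with an interval below 0 went from 2 to 0 with a 99% interval and to 3 (*PRE4*, *PRE8* and *RPN1*) under that centring. The γH2A count went from 1 to 0 among peaks of at least 3-fold enrichment, and to 0 with the summit required in the window, an alternative chosen after seeing the data. The PACE count was 27 with the first 8 bases alone and with 500 bases before the start, and 32 with 1 mismatch allowed. No paired analysis was possible because there is a single library of each kind of cells.

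With 1 library per condition, neither the spread between cultures nor its part in any change can be given, and for *RPN4* a change inside its counting interval (-0.17 to 0.19) is not detectable at this depth. Levels of mRNA say nothing of Rpn4 or subunit protein. Only 1 copper dose and time were sampled.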

Other observations

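In 7 cases the PACE match before a subunit gene also lay in the window of the gene on its other side, so that 1 element stands before a pair of genes. The partners were *NOP14* (with *RPN5*), *YPI1* (with *RPN11*), *ALG13* (with *RPT6*), *MPO1* (with *SCL1*), YOL038C-A (with *PRE6*), *GCD1* (with *RPT4*) and *YTH1* (with *RPN7*). Their levels were lower than those of the subunits. *GCD1*, a subunit of the translation factor eIF2B, was the highest at 9.41 log2 reads per kb in YPD, with 1142 reads in YPD and 1052 with CuSO4 (change -0.17, 95% counting interval -0.29 to -0.05). *NOP14*, a ribosome biogenesis factor, had 1227 and 1163 reads (change -0.13, -0.24 to -0.01). *MPO1*, with 51 and 78 reads, had a change of 0.56 (0.04 to 1.10). The other 4 partners had intervals that included 0. Over all CDS 11.6% had an interval above 0 and 10.1% below. With reads in the range of the 33 genes the shares were 12.4% and 18.4%, but of the partners only *GCD1* and *NOP14* had that many reads. With 7 partners these intervals do not set them apart.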
